A study of Mus musculus with 9 samples.

Results

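Clic1 lies in the class III region of the mouse major histocompatibility complex (MHC) on chromosome 17. The 37 genes followed here, called members, are neighbours on either side of it, from Notch4 to Ddx39b. They were chosen by name and position, with earlier results of these data known. Not every gene of the span is a member, and C4b, Hspa1a, Hspa1b, Hspa1l and D17H6S53E were measured there but left out. Of the 37 members, 32 were among the 14351 genes in the normalized table. In GRCm38 coordinates 22 lay before Clic1 and 10 after it, from 34564268 to 35253707. Egfl8, Vwa7, Msh5, Ly6g5b and Apom had no row in the table, from which the authors had removed genes with few reads. RNA of the hypothalamus was sequenced from male Clic1 KO mice, in which Clic1 is deleted in the whole body, and from WT littermates, all fed normal chow, in 5 KO and 4 WT libraries. The labels do not say that each library is a separate animal, so p-values measure the spread between libraries. The methods of the study give a CD-1 background, whereas the sample labels give C57b/6J, and neither source used here gives the age of these mice. Replicate 10 was grouped as KO because its description names a K library, although its title and treatment label call it WT, so results that rest on it are also given without it.

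The class III region is a gene-dense stretch between the MHC class I and class II genes, and its genes do not themselves present antigen. It is known for the complement genes C2, Cfb and C4, which act together in marking targets for clearance, but most of its genes serve housekeeping functions such as RNA processing, chromatin modification, protein folding and lipid metabolism. Many of them lie within a few kilobases of each other, often head to head or tail to tail, and part of the region, holding Stk19, C4 and Tnxb with a cytochrome gene, is duplicated as a module that left pseudogene copies behind.

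Values are normalized CPM, read counts scaled to the size of each library. The steps between low values gave about 5.46 to 20.2 M reads per KO library and 7.25 to 11.1 M per WT library. KO replicate 10 had the most reads and stood apart, with a median Spearman correlation of 0.9743 with the other libraries against 0.9891 for the lowest pair among the rest. All 10 hypothalamic marker genes (Avp, Oxt, Pomc, Agrp, Npy, Hcrt, Pmch, Trh, Gal and Sim1) were measured in every library. Their summed levels were 612 to 807 CPM in KO against 559 to 605 CPM in WT libraries. Of the 10, 5 had log2 fold changes above 0 and 5 below, with a median of 0.01. The sums include Avp, the vasopressin gene, at a mean of 207 CPM in KO against 111 CPM in WT libraries, and Pmch at 265 against 221 CPM. Avp was the only one of them past the adjusted threshold (log2 fold change 0.90, adjusted p = 0.0027 in limma). Of 5 blood markers only Alas2 had a row, at 9.79 to 13.4 CPM in KO against 7.58 to 10.3 CPM in WT libraries. A protocol note in the labels names adipose tissue, but none of the 8 adipose markers, among them Adipoq and Plin1, had a row in the table.

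Clic1 itself (chromosome 17, 35049966 to 35058749) was lower in each KO library, with 1.93, 1.32, 0.733, 1.25 and 1.43 CPM (replicates 2, 4, 6, 8 and 10) against 5.52, 4.66, 5.3 and 3.58 CPM for WT (replicates 1, 3, 9 and 11). The values of further genes are given in the same order of libraries. All log2 fold changes are KO against WT, so a negative value is lower in KO mice. That of Clic1 was -1.80 (standard error 0.27, adjusted p = 0.0153 in limma on log2(CPM + 0.1) with Benjamini-Hochberg adjustment over all genes). KO replicate 10 lay inside the range of the other KO libraries for Clic1. With WT replicate 1, 3 or 9 left out, the adjusted p of Clic1 in limma was 0.0893, 0.0826 and 0.0702.

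Among the members, Stk19 was the only gene past an adjusted p of 0.05, and it was lower in KO mice. That is 3.12% of the members, against 0.286% of all genes (0.146% lower and 0.139% higher in KO mice). Hspa1a and Hspa1b, which lie in the span but are not members, also passed (adjusted p = 0.0297 and 0.00604 in limma). An unadjusted p under 0.05 in limma was found for 5 members (15.6%, against 6.5% of all genes), namely Stk19 and C2 with lower and Tnxb, Vars and Gpank1 with higher values in KO mice. KO and WT libraries did not overlap in 4 members (12.5%, against 3.41% of all genes). Stk19 and C2 were lower in every KO library (2 members, against 1.74% of all genes in that direction), and Neu1 and Ddx39b were higher in every KO library (2 members, against 1.67%).

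The differences of the members were mostly small but, in the median and with all 9 libraries, larger than those of all genes. In 22 of the 32 members the log2 fold change was within 0.25 of 0, and the share of all genes within this limit is not given here. For 27 members the 95% interval included 0. It excluded 0 in 15.6% of the members, against 6.5% of all genes. The median log2 fold change was 0.02, with 18 members above 0 and 14 below, beside a median of 0.00 over all genes. The median size of the change without regard to sign was 0.20 in the members and 0.09 over all genes. Without KO replicate 10 these median sizes were 0.09 and 0.08. The shares of members that passed a threshold or did not overlap still exceeded those of all genes without that library. Without it, 1 member, Stk19, still passed an adjusted p of 0.05 in limma (0.606% of all genes did), 6 (Tnxb, Stk19, Dxo, C2, Vars and Prrc2a) had an unadjusted p under 0.05 (18.8%, against 10.5% of all genes) and 5 did not overlap (15.6%, against 6.06%). These 5 were Stk19 and C2, lower in KO mice as 3.19% of all genes were, and Neu1, Prrc2a and Ddx39b, higher as 2.86% of all genes were. Without WT replicate 9, KO and WT libraries did not overlap in 9 members, against 6.21% of all genes. These were Ager, Tnxb, Stk19, C2, Neu1, Gpank1, Aif1, Atp6v1g2 and Ddx39b.

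**Figure D1:**
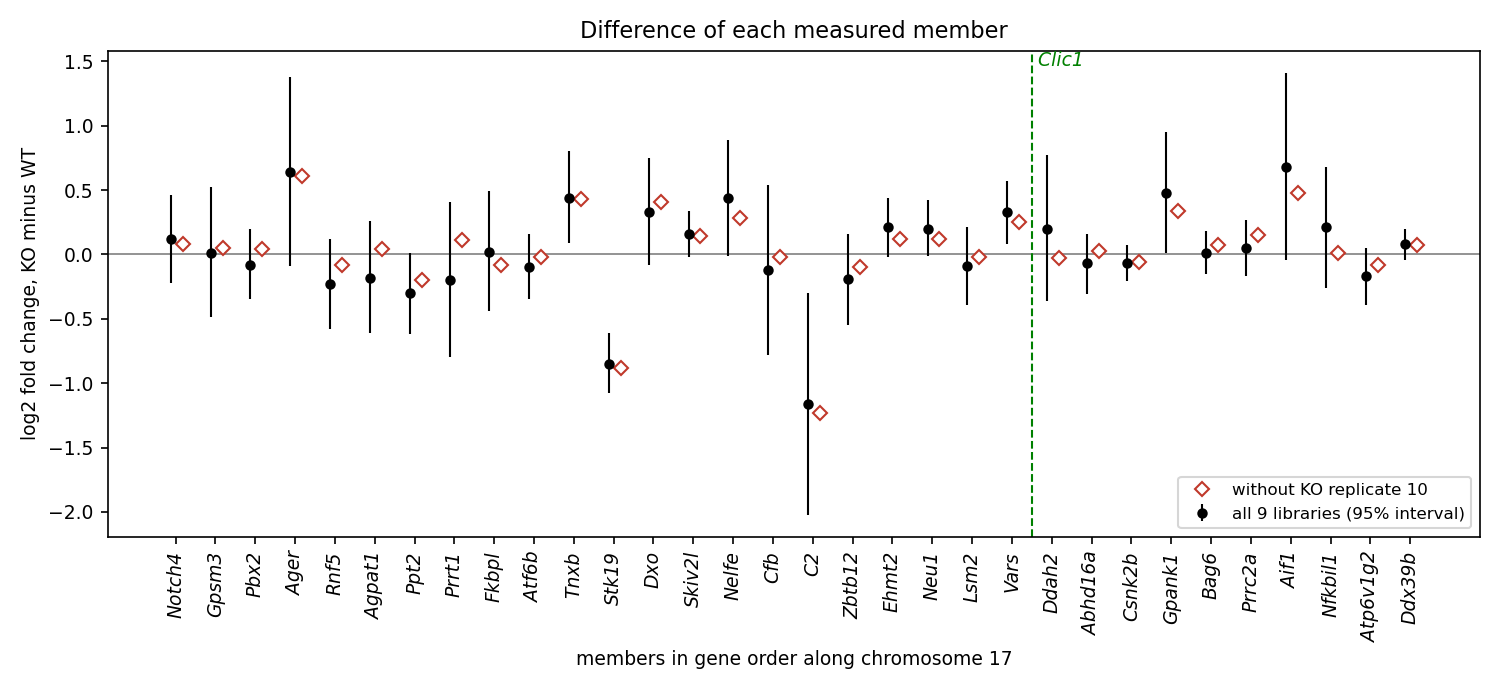
Log2 fold change of KO against WT (y axis) for the 32 measured members in gene order along chromosome 17 (x axis), with black points and 95% intervals from limma on all 9 libraries and open red diamonds for the fit without KO replicate 10. The dashed line marks the place of Clic1. Stk19 at -0.85 and C2 at -1.16 lie apart from the other members, which lie between -0.30 and 0.68.

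Stk19 encodes a nuclear protein first named as a serine/threonine kinase and since linked to transcription-coupled DNA repair. It lies on the minus strand at 34823993 to 34836945, 213 kb before Clic1. The KO libraries held 20, 17.4, 16.5, 17.5 and 19.8 CPM, while WT libraries held 32, 36.6, 27.3 and 36 CPM. The lowest WT library was above the highest KO library, and the KO mean was 55.3% of the WT mean (18.2 ± 1.55 against 33 ± 4.28 CPM, SD, n = 5 and 4). The log2 fold change was -0.85 (standard error 0.11, 95% interval -1.08 to -0.61, adjusted p = 0.00534 in limma), and the exact two-sided permutation test gave p = 0.0159, the smallest that 5 against 4 libraries allow. In bulk RNA, fewer cells of a type and less RNA per cell cannot be told apart.

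The decrease of Stk19 held in each fit that left out a library, with log2 fold changes between -0.93 and -0.79 and adjusted p between 0.000346 and 0.035 in limma. In replicate 10, Clic1 was at 1.43 CPM, within the range of the other KO libraries and below every WT library. Under the WT label of replicate 10 the log2 fold change of Stk19 would be -0.73 (adjusted p = 0.33 in limma). The values rest on about 90.1 to 155 reads in KO libraries 2, 4, 6 and 8, about 400 in KO replicate 10 and about 261 to 354 in the WT libraries. A pseudogene, Stk19-ps1, matches the longest Stk19 transcript at 97% identity over 101 nt of 2031 nt and had no row in the table.

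The measured genes beside Stk19 did not pass the threshold. Dxo, a decapping exoribonuclease that removes faulty caps from mRNA, starts 73 bases from Stk19 in the opposite orientation. Dxo had 11.6, 10.8, 10.1, 10.3 and 8.16 CPM in the KO and 8.68, 7.98, 11.1 and 5.37 CPM in the WT libraries, which overlapped (log2 fold change 0.33, 95% interval -0.08 to 0.75, adjusted p = 0.824 in limma). Without WT replicate 11, the lowest library, the log2 fold change of Dxo was 0.14. Skiv2l, the RNA helicase of the SKI complex that feeds mRNA to the exosome, shares 6 nt of its exons with the end of Dxo on the opposite strand. Its log2 fold change was 0.16 (interval -0.02 to 0.34), from 59.8 ± 4.65 CPM on average in KO against 53.5 ± 4.17 CPM in WT mice (SD, n = 5 and 4). Nelfe, a subunit of the negative elongation factor that pauses RNA polymerase, starts 180 bases from Skiv2l and had 19.2 ± 5.92 CPM on average in KO against 13.9 ± 3.23 CPM in WT mice (SD, n = 5 and 4), with the highest value, 29.4 CPM, in KO replicate 10. The log2 fold change of Nelfe was 0.44 (interval -0.01 to 0.89) and 0.28 without that library. On the other side, the complement gene C4b, which is no member, had 99.7 ± 20.5 CPM on average in KO against 88.1 ± 28.9 CPM in WT mice (adjusted p = 0.881 in limma).

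C2, a serine protease precursor of the classical and lectin complement pathways, had the log2 fold change of greatest size among the members, from few reads. The KO libraries held 2.96, 3.95, 0.733, 3.44 and 3.07 CPM of C2, and the WT libraries 5.43, 6.22, 6.5 and 4.68 CPM. The groups did not overlap, and the KO mean was 49.6% of the WT mean. The exact permutation test gave p = 0.0159, as it does for any gene whose groups do not overlap, so it adds nothing to that. The fitted log2 fold change was -1.16 (standard error 0.39, interval -2.02 to -0.30), and its adjusted p over all genes was 0.589 in limma, so C2 did not pass the threshold. KO replicate 6 rested on about 4 reads, and the other libraries on about 22 to 64.9. Without KO replicate 6 the log2 fold change of C2 was -0.75. Over the 9 fits that left out a library it lay between -1.32 and -0.75, with an unadjusted p under 0.05 in limma in each.

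Cfb, the corresponding protease of the alternative pathway, lies next to C2. It had 1.22 ± 0.439 CPM on average in KO against 1.29 ± 0.229 CPM in WT mice (SD, n = 5 and 4), a log2 fold change of -0.12 (interval -0.78 to 0.54). The annotation holds a further gene, Gm20547, whose transcript shares 1051 nt with that of C2 and 2248 nt with that of Cfb at 100% identity. It had no row in the table, and reads of both genes could be divided with it. Zbtb12, a zinc-finger gene, shares 161 nt of exons with C2 on the opposite strand. Zbtb12 had 7.05 ± 1.5 CPM on average in KO against 7.95 ± 0.656 CPM in WT mice (SD, n = 5 and 4), a log2 fold change of -0.19 that was -0.10 without KO replicate 10 and -0.29 without KO replicate 2. Whether reads were counted by strand is not given in the sources used here, and without strand the reads from the shared stretch cannot be told apart. That stretch is 4.16% of the exon length of C2 and 7.97% of that of Zbtb12. The sum of C2 and Zbtb12 was 9.88 ± 1.64 against 13.7 ± 1.21 CPM (log2 fold change -0.47, adjusted p = 0.441 in limma).

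**Figure D2:**
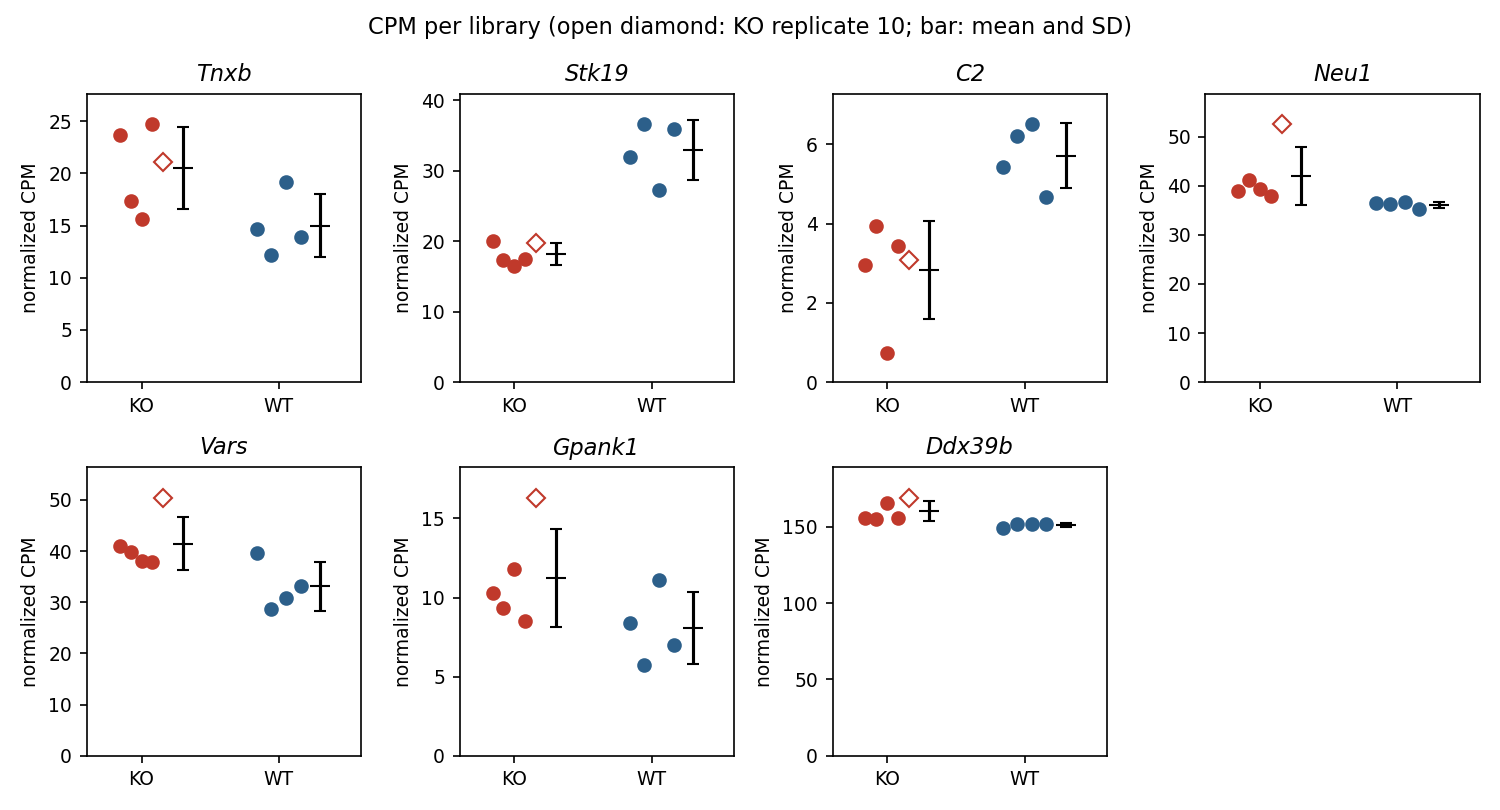
Normalized CPM (y axis, from 0) of the 7 members with an unadjusted p under 0.05 or with groups that do not overlap, per library, KO in red and WT in blue, with bars at the mean and SD of each group. KO replicate 10 is the open diamond and is the highest library in Neu1, Vars, Gpank1 and Ddx39b, while in Stk19 and C2 it lies among the other KO libraries, below every WT library.

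Neu1 and Ddx39b differed by little, and their groups did not overlap. Neu1, the lysosomal sialidase that trims sialic acids from glycoproteins, lies 114 kb before Clic1. It had 39, 41.1, 39.4, 38 and 52.5 CPM in the KO and 36.5, 36.2, 36.7 and 35.3 CPM in the WT libraries. The KO mean was 116% of the WT mean, with a log2 fold change of 0.20 (interval -0.01 to 0.42, adjusted p = 0.773 in limma). Without KO replicate 10 the log2 fold change was 0.12, and the groups still did not overlap. Ddx39b, the RNA helicase that couples splicing to mRNA export, is the last member, 183 kb after Clic1. It had 156, 155, 166, 156 and 169 CPM in the KO and 149, 152, 152 and 152 CPM in the WT libraries, a KO mean of 106% of the WT mean. Its log2 fold change was 0.08 (interval -0.04 to 0.20, adjusted p = 0.835 in limma). In both genes the gap between the lowest KO and the highest WT library was small beside the spread among the KO libraries.

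The sequences before the start sites of these members that were higher in every KO library are shown for their sequence context, as given by RefSeq on GRCm38.p6. They are the 250 bases before the start, on the plus strand at chr17:34931003-34931252 for Neu1 and chr17:35241496-35241745 for Ddx39b, 5′ to 3′, and capitals mark a match to a motif searched on both strands.
Neu1: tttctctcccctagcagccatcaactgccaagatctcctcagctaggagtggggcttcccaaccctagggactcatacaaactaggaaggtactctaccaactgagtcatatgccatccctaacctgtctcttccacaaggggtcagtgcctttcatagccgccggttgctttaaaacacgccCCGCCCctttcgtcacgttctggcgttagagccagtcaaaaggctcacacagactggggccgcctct
Ddx39b: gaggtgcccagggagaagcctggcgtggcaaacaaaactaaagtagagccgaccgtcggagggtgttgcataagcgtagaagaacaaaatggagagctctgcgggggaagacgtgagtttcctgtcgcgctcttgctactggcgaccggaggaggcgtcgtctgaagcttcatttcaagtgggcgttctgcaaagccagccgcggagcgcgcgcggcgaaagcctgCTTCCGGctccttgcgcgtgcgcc
The Neu1 window held 1 match to GGGCGG, which 32.7% of 32851 promoters of this length held, and the Ddx39b window held 1 match to CCGGAAG, which 6.91% held. None of the 24 measured members with a promoter entry held TATAAA or the palindromic NRF1 motif in this window, against 12.4% and 0.782% of all promoters. GGGCGG was found in 15 of the 24, CCAAT in 7 (33.8% of all promoters), CCGGAAG in 3 and CACGTG in 2, Atf6b and Ehmt2 (6.02% of all promoters). Members were counted as genes, with a match in any entry, whereas the percentages are over single promoter entries, so the shares are not strictly comparable. Rnf5, Stk19, Dxo, Skiv2l, Nelfe, Cfb, C2 and Vars had no entry.

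Of the 12 members that act in transcription, RNA processing and translation, none passed the adjusted threshold, 8 were above 0 and 4 below, with a median log2 fold change of 0.12. Vars, the valyl-tRNA synthetase, lies 33.6 kb before Clic1. It had 41, 39.8, 38.1, 37.8 and 50.4 CPM in the KO and 39.7, 28.7, 30.8 and 33.2 CPM in the WT libraries. WT replicate 1 overlapped with the KO range. The log2 fold change was 0.33 (interval 0.08 to 0.57, unadjusted p = 0.0143, adjusted p = 0.622 in limma) and 0.25 without KO replicate 10. Gpank1, a gene for a protein with ankyrin repeats and a G-patch, had 10.3, 9.31, 11.8, 8.51 and 16.3 CPM in the KO and 8.39, 5.76, 11.1 and 6.99 CPM in the WT libraries, which overlapped. Its log2 fold change of 0.48 (interval 0.01 to 0.95, unadjusted p = 0.0473 in limma) became 0.34 without KO replicate 10 (unadjusted p = 0.0852 in limma). Another annotated gene, Gm5628, shares 1052 nt with Gpank1 at 97.7% identity and had no row in the table.

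Ehmt2, also known as G9a, adds methyl groups to histone H3 lysine 9. Its CPM was 164, 160, 148, 147 and 211 in the KO and 146, 125, 147 and 151 in the WT libraries, with a log2 fold change of 0.21 (interval -0.02 to 0.44) that was 0.12 without KO replicate 10. Prrc2a, a large protein that binds methylated RNA, differed in direction between KO replicate 10 and the other KO libraries. In KO replicates 2, 4, 6 and 8 it had 687, 639, 661 and 615 CPM, each above the WT values of 598, 575, 565 and 606 CPM, while KO replicate 10 had 463 CPM. The log2 fold change was 0.05 with all libraries and 0.15 without KO replicate 10 (unadjusted p = 0.00469, adjusted p = 0.208 in limma). Pbx2, a homeodomain factor, had a log2 fold change of -0.08. It was -0.10 for Atf6b, a membrane-bound factor of the endoplasmic reticulum stress response. Lsm2, a subunit of the ring that binds U6 RNA and decaying mRNA, had a log2 fold change of -0.09.

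Several members work in protein complexes whose other subunits lie elsewhere in the genome. Of 44 such partners, 43 were measured (NELF, SKI, LSM, TREX, casein kinase 2, BAG6, G9a, V-ATPase, sialidase and transcription-coupled repair). None had an adjusted p under 0.05 in limma or in limma-voom, and 3 had an unadjusted p under 0.05 (6.98%, against 6.5% of all genes). With sample weights in limma, Ehmt1 and Atp6v1b2 passed the adjusted threshold. Ehmt1, which forms the heterodimer with Ehmt2, had 82.2, 80.1, 105, 81.3 and 108 CPM in the KO and 57.9, 61.8, 78.9 and 65 CPM in the WT libraries. Every KO library was above every WT library, and the means differed by 0.47 on the log2 scale (adjusted p = 0.279 in limma), or 0.40 without KO replicate 10. Atp6v1b2, of the V-ATPase, had a log2 fold change of -0.20, and Ubl4a, of the BAG6 complex, of -0.22. The partners of Skiv2l in SKI, of Nelfe in NELF and of Stk19 in transcription-coupled repair were not among these 3.

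Among the surface and matrix members, Tnxb had the largest difference. It encodes tenascin X, a matrix glycoprotein of connective tissue. Its CPM was 23.7, 17.4, 15.6, 24.7 and 21.1 in the KO and 14.7, 12.2, 19.2 and 13.9 in the WT libraries, and WT replicate 9 lay within the KO range. The log2 fold change was 0.44 (interval 0.09 to 0.80, unadjusted p = 0.0192, adjusted p = 0.664 in limma). Markers of meningeal fibroblasts varied widely beside it. All 8 were measured, their summed level ranged from 94.6 to 404 CPM in KO and from 108 to 229 CPM in WT libraries, and none was at 0 in a library. Of the 8, 6 had log2 fold changes above 0 and 2 (Dcn at -0.06 and Islr at -0.11) below, with a median of 0.59, and none passed the adjusted threshold in limma. The 3 with an unadjusted p under 0.05, Col1a1, Col1a2 and Col3a1, had higher KO means by log2 differences of 0.57, 0.61 and 0.91, at unadjusted p of 0.0352, 0.0225 and 0.032 in limma. KO replicate 8 had the highest sum of markers and the highest Tnxb. Among the WT libraries, replicate 9 had the highest of both, 229 CPM of markers and 19.2 CPM of Tnxb. KO replicate 6 had the lowest Tnxb of the KO libraries, with a sum of 99.6 CPM. But KO replicate 10 had the lowest sum, 94.6 CPM, with 21.1 CPM of Tnxb, and KO replicate 4 had 327 CPM with 17.4 CPM. The part of these cells in the Tnxb result was not tested. The pseudogene Tnxa matches Tnxb at 97.6% identity over 1090 nt and had no row in the table.

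Notch4, a Notch receptor of the endothelium, had 7.65 ± 1.49 CPM on average in KO against 6.94 ± 0.579 CPM in WT mice (SD, n = 5 and 4), a log2 fold change of 0.12 (interval -0.22 to 0.46). The summed level of 10 endothelial markers was 235 to 266 CPM in KO against 221 to 241 CPM in WT libraries, and 1 of the 10, Slco1a4, had an unadjusted p under 0.05 in limma (log2 fold change 0.36). Prrt1, which associates with AMPA receptors at synapses, had 139, 122, 109, 124 and 42.8 CPM in the KO and 117, 123, 98.2 and 121 CPM in the WT libraries. The value of KO replicate 10 turned the log2 fold change from 0.11 without it to -0.20 with it.

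**Figure D3:**
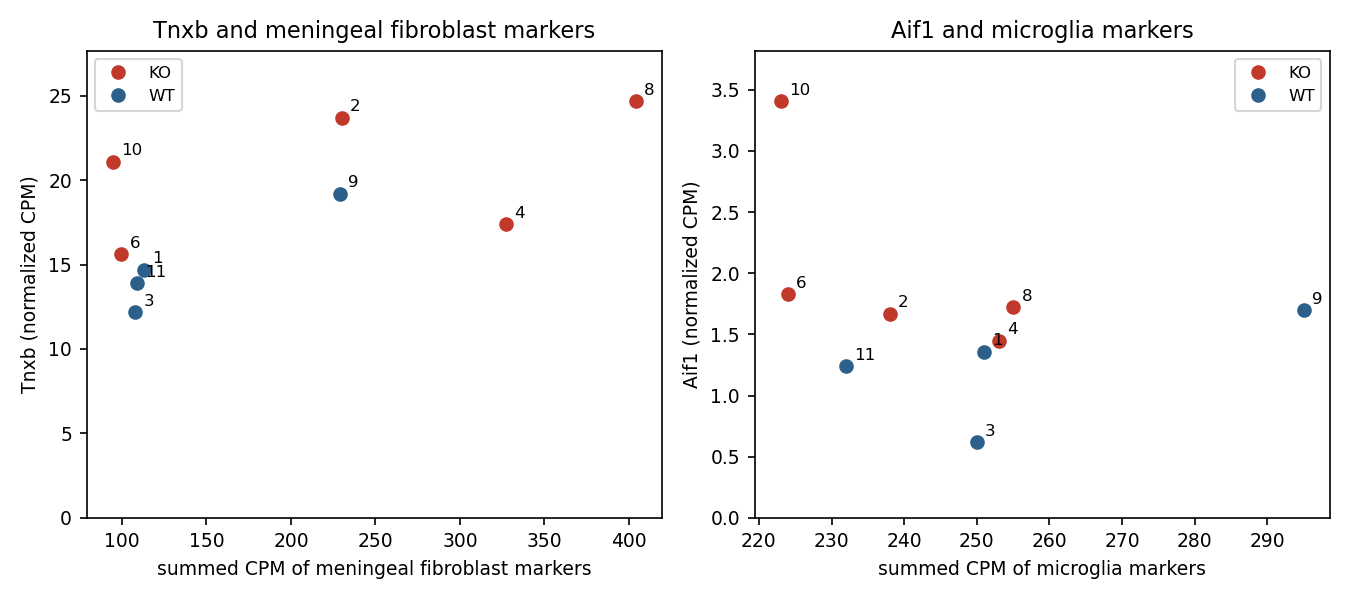
CPM of Tnxb (left) and Aif1 (right) on the y axis against the summed CPM of meningeal fibroblast and microglia markers on the x axis, 1 point per library, numbered by replicate, KO in red and WT in blue. KO replicate 10 has 94.6 CPM of fibroblast markers with 21.1 CPM of Tnxb, and 223 CPM of microglia markers with 3.41 CPM of Aif1. WT replicate 9 has 229 CPM of fibroblast markers with 19.2 CPM of Tnxb, and KO replicate 8 has 404 CPM with 24.7 CPM.

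Like C2, the other immune members were low, and none of them passed the adjusted threshold either. Aif1, which encodes the microglial protein Iba1, had 1.67, 1.45, 1.83, 1.72 and 3.41 CPM in the KO and 1.36, 0.622, 1.7 and 1.24 CPM in the WT libraries. The log2 fold change was 0.68 (interval -0.04 to 1.41) and 0.48 without KO replicate 10, which had the highest value, or 0.41 without WT replicate 3, which had the lowest. The summed level of 10 other microglial markers (Cx3cr1, P2ry12 and Tmem119 among them) was 223 to 255 CPM in KO against 232 to 295 CPM in WT libraries, with 0 of 10 at an unadjusted p under 0.05 in limma and a median log2 fold change of -0.10. KO replicate 10 had the lowest of these sums, 223 CPM, and the part of these cells in the Aif1 result was not tested. Ager, the receptor for advanced glycation end products, had 1.39 ± 0.238 CPM on average in KO against 0.919 ± 0.455 CPM in WT mice (log2 fold change 0.64, interval -0.09 to 1.38), from about 4.99 to 31 reads per library, and the log2 fold change was 0.39 without WT replicate 1. Gpsm3, a regulator of G-protein signalling in myeloid cells, had a log2 fold change of 0.01 (interval -0.49 to 0.52). It was 0.21 for Nfkbil1, an IκB-like protein, and 0.01 without KO replicate 10.

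Of the 6 measured members of lysosomal, lipid and small-molecule metabolism, 2 were above and 4 below 0, with log2 fold changes between -0.30 and 0.20. Ppt2, a lysosomal thioesterase, was at -0.30 (interval -0.62 to 0.01), with 17.1 ± 3.42 CPM on average in KO against 20.7 ± 1.33 CPM in WT mice (SD, n = 5 and 4). A further annotated gene, Gm20460, shares 774 nt with Ppt2 at 100% identity and had no row in the table. Agpat1, which makes phosphatidic acid, had 137, 129, 121, 129 and 61.3 CPM in the KO and 124, 112, 135 and 133 CPM in the WT libraries, and its log2 fold change was -0.18 with and 0.04 without KO replicate 10. Atp6v1g2, a neuronal subunit of the proton pump of synaptic vesicles and lysosomes, had 351, 338, 335, 341 and 248 CPM in the KO and 356, 394, 334 and 360 CPM in the WT libraries (log2 fold change -0.17, interval -0.39 to 0.05, and -0.08 without KO replicate 10). Abhd16a, a phosphatidylserine lipase, was at -0.07.

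In the 5 measured members for kinases, repair and protein handling, those other than Stk19 did not pass the threshold and lay between -0.23 and 0.02. Csnk2b, the regulatory subunit of casein kinase 2, had a narrow interval, at 70.1 ± 3.25 CPM on average in KO against 73.7 ± 3.14 CPM in WT mice (SD, n = 5 and 4) and a log2 fold change of -0.07 (interval -0.21 to 0.07). Bag6, a chaperone that guards membrane proteins before insertion, was at 0.01 (interval -0.15 to 0.18). Rnf5, a ubiquitin ligase of the endoplasmic reticulum, was at -0.23 with all libraries and -0.08 without KO replicate 10. Fkbpl, a co-chaperone related to FKBP proteins, was at 0.02.

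The members nearest to Clic1 were not those with the log2 fold changes of greatest size. Ddah2, of the dimethylarginine hydrolase family, starts 0.286 kb after the end of Clic1 and is the nearest member. It had 3.86, 5.4, 4.95, 5 and 10.7 CPM in the KO and 4.16, 4.25, 5.3 and 5.92 CPM in the WT libraries, with a log2 fold change of 0.20 (interval -0.36 to 0.77) and -0.03 without KO replicate 10. Abhd16a and Vars, the next members on either side, are described above. Neither passed the adjusted threshold, but Vars had an unadjusted p of 0.0143 in limma. Within the span of the members, the other measured genes were Clic1, C4b, Hspa1a, Hspa1b, Hspa1l and D17H6S53E, of which Clic1 and Hspa1b were lower and Hspa1a higher in KO mice at an adjusted p under 0.05 in limma. Hspa1a and Hspa1b are near-identical heat shock genes between which reads can be divided, and their log2 fold changes were 1.10 and -1.15. When each library was left out in turn, Hspa1b passed in 9 of 9 fits and Hspa1a in 1 of 9, with an adjusted p of up to 0.144 in limma. In the 1 Mb before the span 3 of 34 measured genes passed (Rps18, Rgl2 and H2-K1). In the 1 Mb after it 2 of 27 passed (H2-T22 and H2-T23). All 5 were higher in KO mice in the fit on all 9 libraries, where 0.286% of all genes passed. An unadjusted p under 0.05 in limma was found in 11 of the 34 and 8 of the 27 genes, against 6.5% of all genes. KO and WT libraries did not overlap in 8 and 5 of them, against 3.41% of all genes. The median log2 fold changes were 0.18 and 0.14, beside 0.02 in the members.

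Per kilobase of annotated exon, the levels of the members in WT mice spanned from 144 CPM per kb for Atp6v1g2 to 0.429 CPM per kb for Ager. Prrc2a followed with 76.8, Prrt1 with 49.7, Agpat1 with 41.9 and Ddx39b with 39.9 CPM per kb. Stk19, with 10.4 CPM per kb, lay among Skiv2l (10.7), Atf6b (10.3) and Neu1 (9.69). C2, Tnxb, Notch4, Aif1 and Cfb were at 1.47 CPM per kb or below in WT mice. In all, 13 of the 32 members had a mean under 10 CPM over the libraries.

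Much of the spread among the KO libraries came with replicate 10. It lay outside the range of the other 4 KO libraries in 25 of 32 members (78.1%, against 70% of all genes), above it in 11 and below it in 14. Relative to the mean of the other KO libraries it was lower in Prrt1 by a log2 difference of -1.52, in Agpat1 by -1.07 and in Rnf5 by -0.76. It was higher in Ddah2 by 1.15, in Nfkbil1 by 1.03, in Aif1 by 0.99 and in Nelfe by 0.82. In Stk19 the difference was 0.15 and in C2 0.37, both inside the range of the other KO libraries.

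**Figure D4:**
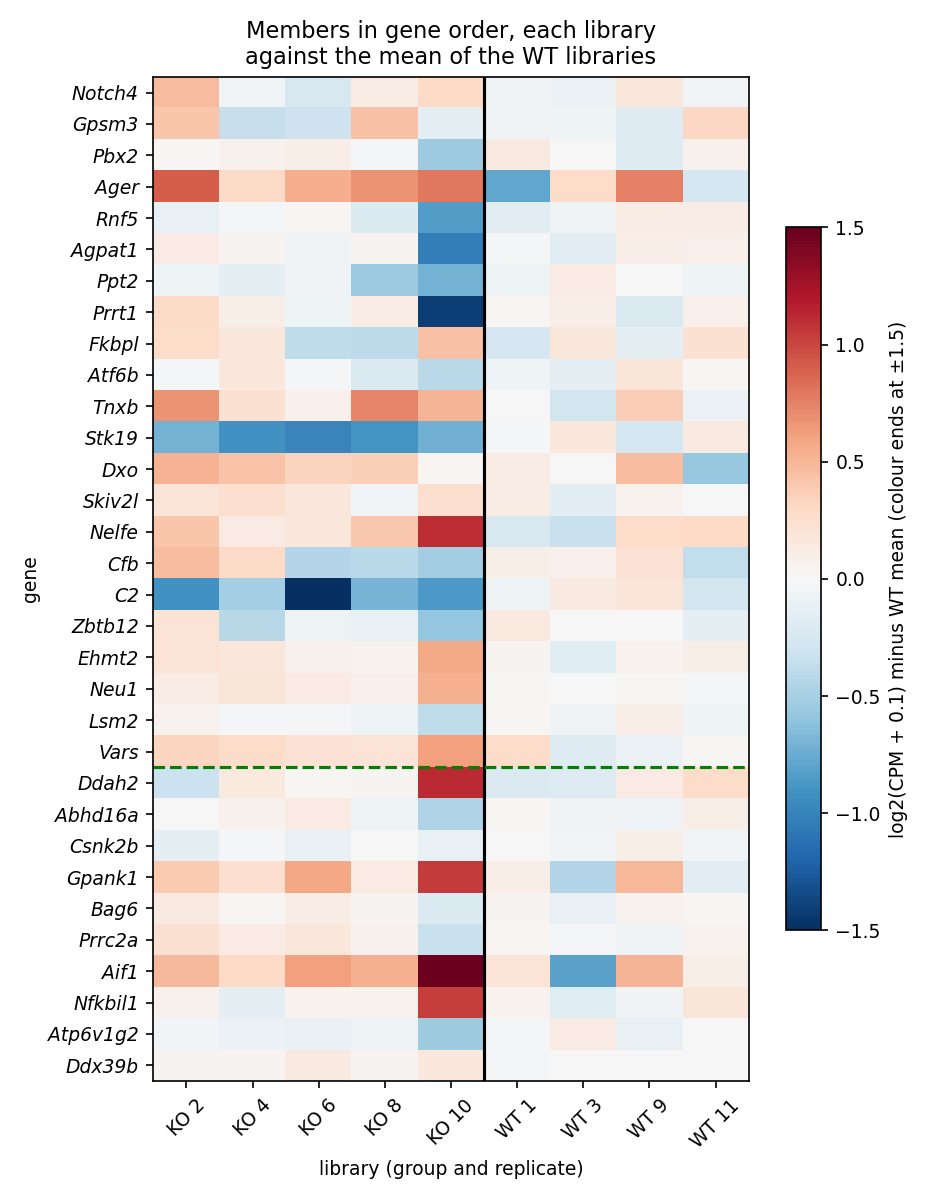
Log2(CPM + 0.1) of each measured member in each library minus its mean over the 4 WT libraries, members in gene order (rows, dashed line at Clic1) and libraries by group (columns), with colours ending at ±1.5. Stk19 and C2 are low in all 5 KO libraries, and the KO 10 column differs from the other KO columns in many genes, among them Prrt1 and Agpat1 (lower) and Ddah2 and Nfkbil1 (higher).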

How the data were processed

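Hypothalamic RNA was sequenced on a NovaSeq after TruSeq library preparation. Per the methods and the submitters' processing notes, the authors checked reads with FastQC 0.11.8, trimmed them with Trimmomatic 0.38, aligned them with STAR 2.5.1a to GRCm38.p6, quantified genes with RSEM 1.3.0, kept genes with at least 1 CPM in at least 5 samples and normalized with edgeR's trimmed mean of M values. The deposited signal values are these normalized CPM. Columns of the authors' own fold changes and p-values were not used, and 1 further column of library values, which fitted no sample's labels, was left out. Whole reads were sought from the steps between low values, and 81.3 to 86.5% of values came out whole within 0.03 reads, so estimated reads were used only for depth and 1 alternative.

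Log2(CPM + 0.1) was fitted over all 14351 genes with limma 3.58.1 (R 4.3.3, trend, a genotype term alone) and adjusted by Benjamini-Hochberg, at a threshold of 0.05. With a pseudocount, fold changes of low genes are understated. Single values were also tested by a two-sided exact permutation test (scipy 1.17.1). Intervals are 95%. The script was tested on simulated data. Positions came from GENCODE M21 on GRCm38, near-identical transcripts from blastn 2.17.0, and promoters from RefSeq. The members and lists were chosen with earlier results of these data known. All measured members are named, with values in every library for those past an adjusted or unadjusted p of 0.05 or with groups that do not overlap, and for some others by way of illustration, chosen after their values were seen. Other genes of the span and the flanks are named past the adjusted threshold, and partners past the unadjusted one. The values of other span genes given beside a member were chosen after they were seen. Alternatives were pseudocounts of 0.5 and 1, a filter at a mean of 5 CPM, 2 other scalings, limma without trend, with sample weights and as voom, replicate 10 as WT, summing overlapping genes and leaving out each library.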

Additional observations from a re-analysis of the deposited data

Results flagged for a closer look

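Among 66 sets of member values tested (KO or WT libraries of 1 gene, Clic1 included), 12 held a library far from the others by Dixon's test, against 3.3 that chance gives. Of these, 10 were in KO replicate 10, the library with conflicting labels. That library lay outside the range of the other KO libraries in 70% of all genes, so its flags are not particular to the members. It was low in Pbx2 (36.4 CPM, other KO libraries 52.1 to 57), Agpat1 (61.3, others 121 to 137) and Atp6v1g2 (248, others 335 to 351). It was high in Nelfe (29.4 CPM, others 14.9 to 18.3), Ehmt2 (211, others 147 to 164), Neu1 (52.5, others 38 to 41.1) and Vars (50.4, others 37.8 to 41). It was also high in Ddah2 (10.7 CPM, others 3.86 to 5.4), Aif1 (3.41, others 1.45 to 1.83) and Nfkbil1 (15.3, others 6.72 to 7.71). WT replicate 3 was low in Bag6 (180 CPM, other WT libraries 199 to 202), and WT replicate 1 was low in Ddx39b (149 CPM, others at 152).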

How the results depend on the processing

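No paired analysis was run. KO and WT libraries share no replicate number, and the methods of the study do not give the litter of each library. Of 580 comparisons of a member's log2 fold change with an alternative, 540 kept direction and side of the threshold. Stk19 passed in each alternative but replicate 10 as WT (-0.73, adjusted p = 0.33 in limma). With replicate 10 as WT, Clic1 was -1.51 (adjusted p = 0.501 in limma), 5 genes and 0 members passed, and 1 member (Prrc2a) did not overlap. The share of all genes that did not overlap under this grouping is not given here. Genes passing numbered 41, against 135 with sample weights, 27 under the filter on mean CPM and 18 to 87 when a library was left out. Leaving out a library gave Clic1 values of -1.94 to -1.62 (adjusted p 0.00494 to 0.0893 in limma) and 4 to 9 members that did not overlap. Over all genes, 6.06% did not overlap without KO replicate 10 and 6.21% without WT replicate 9, against 3.41% with all libraries. The member medians ranged from -0.028 to 0.077, with the highest without WT replicate 11. With sample weights, 2 partner genes passed. The causes were not tested.

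The changes of sign were all in members that did not pass. With replicate 10 as WT the log2 fold change became 0.12 in Abhd16a, 0.25 in Agpat1, 0.06 in Atf6b, 0.03 in Atp6v1g2, 0.08 in Cfb, -0.25 in Ddah2, -0.17 in Fkbpl, 0.06 in Lsm2, -0.20 in Nfkbil1, 0.15 in Pbx2, 0.39 in Prrt1, 0.09 in Rnf5 and 0.02 in Zbtb12. With sample weights it became 0.00 in Abhd16a, 0.03 in Agpat1, 0.00 in Atf6b, 0.02 in Cfb and 0.06 in Prrt1. Summed with the overlapping neighbour, the value was -0.01 for Gpank1 with Csnk2b, -0.07 for Gpsm3 with Pbx2 and -0.16 for Nfkbil1 with Atp6v1g2. In WT mice the member made up 8.05 of 81.8, 2.78 of 56 and 7.43 of 368 CPM on average. Each sum thus mostly followed the neighbour and does not show a change of sign in the member. With a library left out the log2 fold change ranged from -0.12 to 0.03 in Abhd16a and -0.25 to 0.04 in Agpat1. It ranged from -0.02 to 0.07 in Bag6, -0.03 to 0.34 in Ddah2 and -0.08 to 0.13 in Fkbpl. In Gpsm3 it lay between -0.09 and 0.12, in Pbx2 between -0.14 and 0.04 and in Prrt1 between -0.32 and 0.11. Of the 32 members, 13 had a mean under 10 CPM, and the part of depth in their errors was not tested.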
